A study of Homo sapiens with 6 samples.

Results

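Collagens are the structural proteins of the extracellular matrix, and the genes of their alpha chains were followed here in LN229 cells, an established human glioblastoma line, with and without PARP3, an ADP-ribosyltransferase of the nucleus. Members were taken by name, as every protein-coding gene whose symbol reads COL, a number, A and a number, which gave 41 of the 33841 genes in the deposited table. Parental LN229 cells (WT, labelled PARP3+/+) were compared with LN229 cells disrupted in PARP3 by CRISPR/Cas9 (PARP3-/-), each genotype in 3 biological replicates of proliferating cells grown in MEM with fetal bovine serum and gentamicin, without further treatment. According to the methods of the study, paired nickase guides were directed at PARP3 exons and single cells were grown into clones. Which clone was sequenced is not given in the sources used here, so the effect of PARP3 loss and of growing up 1 clone cannot be told apart. COL26A1, COL6A5 and COL6A6 were not analysed here.

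An alpha chain carries long runs of glycine followed by a pair of other residues, written Gly-X-Y, and identical or different chains wind into a triple helix before secretion. The classes differ in what the helices build. Fibrillar collagens form the banded fibrils of connective tissue, type IV collagens form the sheet of basement membranes, type VI collagens form beaded filaments around cells, and FACIT collagens (fibril-associated collagens with interrupted triple helices) bind to the surface of fibrils. Short-chain collagens build hexagonal lattices, multiplexins sit in basement membrane zones, type VII collagen anchors epithelia, and transmembrane collagens stay in the plasma membrane. In brain tissue, the fibrillar types are sparse outside vessels and meninges, while glioblastoma cells in culture can produce a broad range of chains.

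The Gly-X-Y repeat can be read in the exons themselves. The following 3 coding exons are shown because they come from an abundant fibrillar chain (COL11A1), from the fibrillar chain whose RNA fell most (COL5A3) and from the type IV chain whose RNA rose (COL4A1). Each is the first inner exon of the gene's canonical GENCODE 44 transcript that starts on a glycine codon, is a multiple of 9 bases long and keeps the repeat throughout. Exons under a minimum length were passed over. The exons are written 5′ to 3′ in the sense of the gene on GRCh38, with glycine codons (GGN) in capitals. 
COL11A1, exon 11 of 67, chr1:103017820-103017882, minus strand: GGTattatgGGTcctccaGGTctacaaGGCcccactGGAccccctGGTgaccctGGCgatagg
COL5A3, exon 11 of 67, chr19:9997371-9997433, minus strand: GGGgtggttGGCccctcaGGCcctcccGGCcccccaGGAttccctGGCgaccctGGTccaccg
COL4A1, exon 3 of 52, chr13:110213926-110214015, minus strand: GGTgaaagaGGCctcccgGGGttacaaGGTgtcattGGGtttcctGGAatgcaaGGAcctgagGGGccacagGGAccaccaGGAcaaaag
The fibrillar pair have 63 bases and 7 glycine codons each, and the type IV exon has 90 bases and 10 glycine codons. Over the 11 fibrillar genes, 528 of 627 inner coding exons (84.2%) were multiples of 9 bases and 305 (48.6%) were 54 bases long. In the FACIT genes the shares were 54.6% and 26.8%, and in the type IV genes they were 47.9% and 4.23%. The 3 short-chain genes had no inner coding exon.

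The stretch before the transcription start is shown for the genes with a RefSeq entry (GRCh38.p14) whose RNA differed most clearly between genotypes. A RefSeq promoter entry was matched for 30 of the 41 genes. There was none for COL1A1, COL1A2, COL2A1, COL3A1, COL5A2, COL6A1, COL8A1, COL9A3, COL14A1, COL20A1 and COL22A1. Capitals mark GGGCGG (the GC box) and CCAAT (the CCAAT box) on either strand, with overlapping matches counted separately. The 250 bases before the start of COL8A2 and of COL5A3, and the 126 bases that lie between the start of COL4A1 on the minus strand and the start of COL4A2 on the plus strand, read as follows.
COL8A2, chr1:36125223-36125472, minus strand: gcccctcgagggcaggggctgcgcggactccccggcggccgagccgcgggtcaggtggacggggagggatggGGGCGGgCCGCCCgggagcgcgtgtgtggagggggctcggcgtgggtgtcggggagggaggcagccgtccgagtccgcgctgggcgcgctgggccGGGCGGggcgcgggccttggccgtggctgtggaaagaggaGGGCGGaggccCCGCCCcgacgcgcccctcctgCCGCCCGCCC
COL5A3, chr19:10010505-10010754, minus strand: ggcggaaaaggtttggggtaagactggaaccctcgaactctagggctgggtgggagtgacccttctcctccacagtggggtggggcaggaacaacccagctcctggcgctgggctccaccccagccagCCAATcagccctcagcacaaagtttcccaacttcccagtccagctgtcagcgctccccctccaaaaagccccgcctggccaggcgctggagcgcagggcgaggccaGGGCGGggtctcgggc
COL4A1 and COL4A2, between the starts, chr13:110307158-110307283, read towards COL4A1: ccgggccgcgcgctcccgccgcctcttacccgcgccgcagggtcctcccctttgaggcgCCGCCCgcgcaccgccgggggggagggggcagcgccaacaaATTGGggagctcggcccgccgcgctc
The COL8A2 stretch held 35 CpG dinucleotides and 7 GC boxes. The COL5A3 stretch held 10 CpG dinucleotides, 1 GC box and 1 CCAAT box. The COL4A1 and COL4A2 stretch held 20 CpG dinucleotides in its 126 bases, with 1 GC box and 1 CCAAT box. Among 35116 RefSeq windows of 250 bases the median was 11 CpG dinucleotides (quartiles 3 and 23), 42.6% held a GC box and 32.0% held a CCAAT box. These letters describe the windows only.

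Between 29692065 and 46010369 counts fell on genes in each of the 6 libraries, and levels are given as CPM, counts scaled to the library size after TMM normalization. A count of 3, taken as the least that can be told from 0, corresponded to 0.0673 to 0.0996 CPM, for counting error only. Replicate 1 stood apart from replicates 2 and 3 in both genotypes (chi-square of 72.4 and 106 per degree of freedom in WT, against 12.2 between WT replicates 2 and 3), so the counts of called genes are also given without it. PARP3 itself had 22.4 to 34.9 CPM in the WT libraries and 19.1 to 22.5 CPM in the PARP3-/- libraries. These ranges overlapped (log2 fold change −0.42, adjusted p = 0.307 by edgeR, and −0.39, adjusted p = 0.0469, as lower with the replicate block), and a count over the whole gene does not check the labels, so the libraries are named by their labels. The p-values measure the spread between these replicates, and with bulk RNA fewer expressing cells and less RNA per cell cannot be told apart. Of the glial and neural markers, whose 10 genes summed to 5254 to 5488 CPM in WT and 4915 to 5735 CPM in PARP3-/-, VIM and NES were abundant, GFAP lay near the count limit and SOX9 had at most 3 counts in every library. S100B was the marker of this list that was called, as lower (log2 fold change −1.06, adjusted p = 0.0256 by edgeR without a block). With the replicate block FABP7, OLIG2 and SOX2 were lower too (adjusted p of 5.38e-07, 0.00152 and 0.00516). The 8 fibroblast and mural markers summed to 47.9 to 68.4 CPM in WT and 44.4 to 81.7 CPM in PARP3-/-. The 5 endothelial markers reached at most 1.45 CPM and the 3 immune markers at most 0.597 CPM in sum in any library, with CDH5, CLDN5 and CD14 at or below 3 counts throughout.

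LN229 cells expressed chains of every class, dominated by a few. Of the 41 genes, 35 had enough counts for testing (filterByExpr of edgeR, minimum count 10, 17144 genes tested in all). The sum of all 41 was 4474 ± 548 CPM in WT and 5271 ± 547 CPM in PARP3-/- (mean ± SD of 3 libraries each). It was higher in the PARP3-/- library of each replicate number, with 5079 and 5900 CPM in replicate 1, 4010 and 5016 CPM in replicate 2, and 4334 and 4898 CPM in replicate 3, while the groups overlapped. Collagen genes took 0.396% to 0.521% of all counts in WT and 0.484% to 0.599% in PARP3-/-. Before any correction for length, COL11A1 alone gave 23.3% of the summed WT collagen CPM, followed by COL4A2 with 15.1% and COL9A3 with 13.1%.

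Per length of the canonical transcript, the order in WT began with COL9A3 at 235 ± 52.8 CPM per kb (SD, n = 3), which ranked 239 of the 17002 tested genes with a length. COL9A3 is a chain of type IX collagen, a FACIT of cartilage. COL11A1, a fibrillar chain of cartilage type XI collagen, followed at 143 ± 16.3 CPM per kb and COL4A2 at 105 ± 3.83 CPM per kb. COL6A2 (60.8 ± 16.7), COL8A1 (56.6 ± 4.21), COL4A1 (48.9 ± 3.25) and COL6A1 (44.5 ± 11.4 CPM per kb) came next. The WT libraries of COL6A2 and COL6A1 spread over the levels of the other genes in this group, whereas those of COL8A1 lay above those of COL4A1. COL18A1 followed at 33.5 ± 5.49 CPM per kb, overlapping COL6A1, and the libraries of COL9A3, COL11A1 and COL4A2 did not overlap each other. By contrast COL1A1, the most familiar chain of bone and skin, lay at 0.293 ± 0.0371 CPM per kb. With the median transcript length of the deposited table in place of the canonical one, COL4A2 moved to the first place and COL9A3 to the third, and COL6A2 to place 10. The 6 genes not tested were COL3A1, with 4 to 14 counts in a library, and COL10A1, COL17A1, COL20A1, COL23A1 and COL25A1, with 0 to 6 counts in a library.

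**Figure D1:**
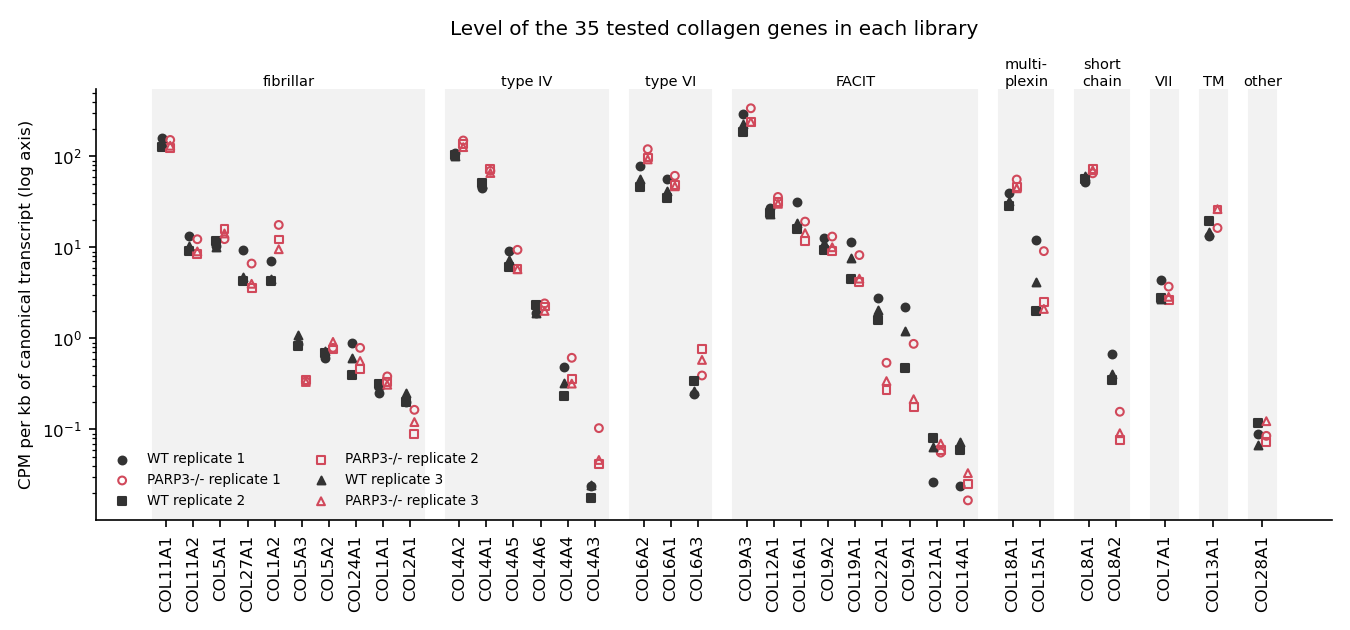
CPM per kb of canonical transcript (log axis) of the 35 tested collagen genes, ordered by class (TM, transmembrane; VII, type VII) and by WT level within a class, with 3 WT libraries (filled) and 3 PARP3-/- libraries (open) per gene. COL9A3, COL11A1 and COL4A2 lead with over 100 CPM per kb, and the open symbols of COL5A3, COL22A1 and COL8A2 lie below all filled ones.

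The comparison of genotypes asked which chains changed when PARP3 was lost. COL22A1, COL8A2 and COL5A3 fell in PARP3-/- cells, and COL1A2 and COL4A1 rose. That is 3 lower genes of 35 (8.57%) where 3.33% of all tested genes were lower, and 2 higher genes (5.71%) where 1.36% were higher, at an adjusted p under 0.05 in edgeR's quasi-likelihood test with Benjamini-Hochberg adjustment. COL8A2 and COL22A1 had been selected for a heatmap by the study on these same samples and are not independent evidence of a direction. Separately, the study reports lower levels of selected transcripts by quantitative PCR in both of its LN229 clones, and its primer list holds COL22A1. The median log2 fold change was 0.10 over the 35 collagen genes and −0.006 over all tested genes. Calls with and without the block refer to edgeR unless DESeq2 is named. Libraries of equal replicate number deviated together, although replicates 2 and 3 also did so across numbers. With the replicate number as a block the counts were 9 lower genes (25.7%, against 12.5% of all tested genes) and 13 higher genes (37.1%, against 11.8%). Without replicate 1 of either genotype, an alternative chosen after seeing the data, 7 of 35 were lower, against 10.1% of all tested genes, and 11 of 35 were higher (31.4%, against 8.91%). DESeq2 called 3 of 37 lower (8.11%, against 3.84%) and 7 of 37 higher (18.9%, against 2.09%). At an adjusted p under 0.001 with a log2 fold change beyond 1, edgeR called no collagen gene lower, against 0.443% of all tested genes, and none higher, against 0.035%.

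**Figure D2:**
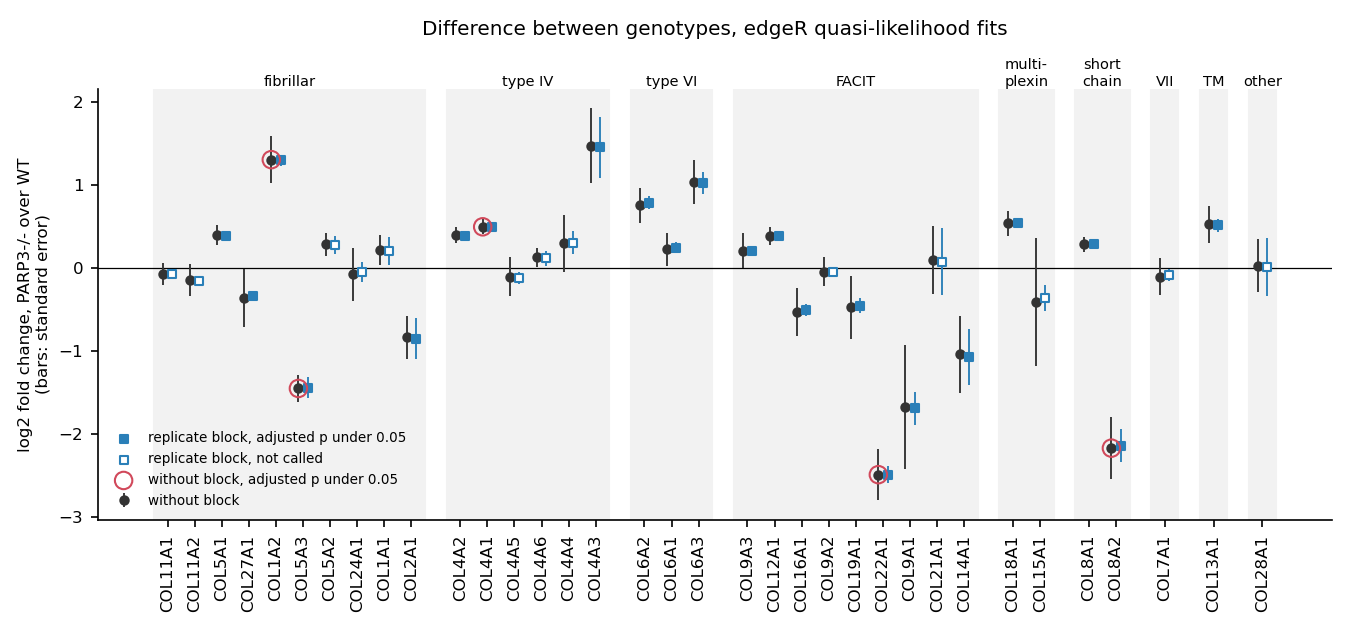
Log2 fold change of PARP3-/- over WT with its standard error for the 35 tested collagen genes by class (TM, transmembrane; VII, type VII), without the block (black, called genes ringed) and with the replicate block (blue squares, filled where called). The ringed genes are COL1A2, COL5A3, COL4A1, COL22A1 and COL8A2, and the blocked bars are the shorter ones for most genes.

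COL22A1, a FACIT chain known from the junction of muscle and tendon, showed the largest drop. It lies on chromosome 8 from 138588235 to 138914006 on the minus strand. Its level was 17.8, 10.1 and 13.1 CPM in WT replicates 1, 2 and 3 and 3.45, 1.75 and 2.17 CPM in PARP3-/- replicates 1, 2 and 3. All PARP3-/- libraries lay below all WT libraries, 5.62-fold lower on average (log2 fold change −2.49, standard error 0.31, adjusted p = 0.00591 by edgeR). Within replicate numbers, the PARP3-/- level was 0.194, 0.174 and 0.165 of the WT level. The call held in each of the 6 fits that left out a library.

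COL8A2, a short-chain collagen of the basement membrane of the corneal endothelium, fell 4.49-fold. Its gene lies on chromosome 1 from 36095236 to 36125220 on the minus strand, below the GC-rich stretch printed above. It was counted 115, 68 and 78 times in the WT libraries and 22, 16 and 16 times in the PARP3-/- libraries, without overlap (log2 fold change −2.17, standard error 0.37, adjusted p = 0.0215 by edgeR). The ratio of PARP3-/- to WT was 0.232, 0.222 and 0.223 in replicates 1, 2 and 3. The call was lost without PARP3-/- replicate 2 (log2 fold change −1.96), PARP3-/- replicate 3 (−2.06) or WT replicate 3 (−2.26). COL8A1, the partner chain of type VIII collagen, moved the other way. It had 288, 314 and 334 CPM in WT and 359, 399 and 388 CPM in PARP3-/-, again without overlap, with a log2 fold change of 0.29 that passed with the replicate block (adjusted p = 0.00241) and missed without it (adjusted p = 0.166). The ratio of COL8A2 to COL8A1 per kb was therefore 0.00858 ± 0.00378 in WT and 0.00158 ± 0.000717 in PARP3-/- (mean ± SD of 3 libraries each). The third short-chain gene, COL10A1, had 2 counts in PARP3-/- replicate 3 and 0 elsewhere.

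Among the fibrillar collagens, COL5A3 fell and COL1A2 rose, while the class as a whole summed to 1295 ± 157 CPM in WT and 1293 ± 134 CPM in PARP3-/- (mean ± SD of 3 libraries each). COL5A3 encodes the least common chain of type V collagen, which starts fibril formation, and lies on chromosome 19 from 9959561 to 10010471 on the minus strand. Its level was 5.42, 5.10 and 6.78 CPM in WT and 2.09, 2.18 and 2.06 CPM in PARP3-/-. The groups were 2.73-fold apart without overlap (log2 fold change −1.45, standard error 0.16, adjusted p = 0.00348 by edgeR), and the call held whichever library was left out. COL5A1, the common chain of the same collagen, was counted 3202, 4197 and 3453 times in WT and 3131, 5965 and 4537 times in PARP3-/-. In CPM these groups did not overlap either, in the opposite direction (log2 fold change 0.40, adjusted p = 0.133 without and 0.000619 with the replicate block). COL5A2 had 4.11, 4.72 and 4.93 CPM in WT and 5.38, 5.16 and 6.25 CPM in PARP3-/- (log2 fold change 0.29, adjusted p = 0.387 and 0.0852). The ratio of COL5A3 to COL5A1 per kb was 0.0877 ± 0.0203 in WT and 0.0243 ± 0.00274 in PARP3-/- (mean ± SD of 3 libraries each).

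COL1A2 and COL1A1 encode the chains of type I collagen, which in tissues is mostly made of both. COL1A2 lies on chromosome 7 from 94394561 to 94431232 on the plus strand. It had 35.8, 21.7 and 22.9 CPM in WT and 89.5, 61.8 and 48.4 CPM in PARP3-/-, 2.48-fold higher without overlap (log2 fold change 1.31, standard error 0.28, adjusted p = 0.0465 by edgeR). With the replicate block the standard error was 0.07 and the adjusted p 6.76e-07. Every single library left out other than WT replicate 1 ended the call without the block, at log2 fold changes from 1.04 without PARP3-/- replicate 1 to 1.5 without PARP3-/- replicate 3. The estimates were 1.36 without PARP3-/- replicate 2, 1.18 without WT replicate 2 and 1.21 without WT replicate 3, and a mean count of at least 50 ended the call as well (1.3). COL1A1 was counted only 54, 79 and 75 times in WT and 68, 88 and 69 times in PARP3-/-, with overlap (log2 fold change 0.22, standard error 0.18, adjusted p = 0.655). Per kb, COL1A2 exceeded COL1A1 18.8-fold in WT (SD 8.21) and 37.9-fold in PARP3-/- (SD 7.79, n = 3).

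The remaining fibrillar chains showed smaller differences. COL11A1, which took the most counts of any collagen gene, had 1165, 928 and 1032 CPM in WT and 1107, 912 and 956 CPM in PARP3-/- (log2 fold change −0.07, standard error 0.13, adjusted p = 0.882). It was lower in PARP3-/- within each replicate number, by ratios of 0.949, 0.983 and 0.926. COL2A1, the chain of cartilage fibrils, was counted 37, 43 and 52 times in WT and 25, 20 and 23 times in PARP3-/-. Its CPM ranges did not overlap, and it passed with the replicate block (log2 fold change −0.85, adjusted p = 0.0288) but not without it (adjusted p = 0.165). COL27A1, a fibrillar chain of developing cartilage, had 72.3, 33.5 and 36.8 CPM in WT and 51.9, 27.9 and 31.1 CPM in PARP3-/-, groups that overlapped and in which replicate 1 was highest, with an adjusted p of 0.728 without and 0.00253 with the block (log2 fold change −0.33). COL11A2 and COL24A1 were called in neither fit. COL3A1, which neighbours COL5A2 on chromosome 2 with 205387 bases between the starts, had 14, 5 and 6 counts in WT and 12, 6 and 4 counts in PARP3-/-.

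Of the type IV collagens of basement membranes, COL4A1 rose, and COL4A2 and COL4A3 were higher with the replicate block. The 6 genes summed to 1059 ± 15.7 CPM in WT and 1403 ± 101 CPM in PARP3-/- (mean ± SD of 3 libraries each), a ratio of 1.32. COL4A1 and COL4A2 lie head to head on chromosome 13 and are transcribed away from the 126-base stretch printed above, and their products join in the common basement membrane helix. COL4A1 had 296, 337 and 326 CPM in WT and 453, 471 and 429 CPM in PARP3-/-, without overlap (log2 fold change 0.50, standard error 0.09, adjusted p = 0.0263 by edgeR). Leaving out any library other than WT replicate 1 ended this call, with log2 fold changes between 0.47 without PARP3-/- replicate 2 and 0.53 without PARP3-/- replicate 3 or WT replicate 2 (0.49 without PARP3-/- replicate 1, 0.51 without WT replicate 3). COL4A2 had 701, 668 and 652 CPM in WT and 963, 884 and 814 CPM in PARP3-/-, also without overlap (log2 fold change 0.40, adjusted p = 0.0830 without and 0.000607 with the replicate block). Both chains were higher in PARP3-/- in every replicate number, COL4A1 by 1.53, 1.4 and 1.32 and COL4A2 by 1.37, 1.32 and 1.25. Their ratio per kb, COL4A2 to COL4A1, was 2.15 ± 0.222 in WT and 2.00 ± 0.140 in PARP3-/- (mean ± SD of 3 libraries each), with overlap. The annotated genes overlap at their starts, and union-mode counting left out reads falling on both unless strand was used.

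The other type IV genes form head-to-head pairs as well, COL4A3 with COL4A4 on chromosome 2 (418 bases between the starts) and COL4A5 with COL4A6 on chromosome X (1415 bases). These distances are between canonical transcript starts, and RefSeq also holds a start of COL4A6 that lies nearer to COL4A5. COL4A3, a chain of the kidney filter, was near the detection limit with 7, 6 and 8 counts in WT and 25, 15 and 14 counts in PARP3-/-. These did not overlap in CPM, and the gene passed with the replicate block (log2 fold change 1.46, standard error 0.37, adjusted p = 0.0149) but not without it (adjusted p = 0.146). Its neighbour COL4A4 was counted 175, 98 and 133 times in WT and 184, 159 and 120 times in PARP3-/-, with overlap (log2 fold change 0.30, adjusted p = 0.781 and 0.139). The ratio of COL4A4 to COL4A3 per kb was 15.6 ± 3.96 in WT and 7.12 ± 1.32 in PARP3-/- (mean ± SD of 3 libraries each), without overlap. COL4A5 had 59.1, 40.1 and 47.4 CPM in WT and 61.4, 38.0 and 37.5 CPM in PARP3-/-. COL4A6 had 12.8, 15.4 and 12.7 CPM in WT and 16.2, 15.0 and 13.4 CPM in PARP3-/-. Neither X-linked chain was called in either fit (adjusted p of 0.912 and 0.728 without the block, 0.265 and 0.346 with it).

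All 3 type VI chains were higher in edgeR with the replicate block, where 11.8% of all tested genes were higher. None was called by edgeR without it, where DESeq2 called COL6A2 (adjusted p = 0.00859) and COL6A3 (adjusted p = 0.00678). Type VI collagen links cells to the surrounding matrix and needs all of its chains for assembly. COL6A2 had 272, 160 and 196 CPM in WT and 413, 335 and 319 CPM in PARP3-/-, without overlap (log2 fold change 0.76, standard error 0.21, adjusted p = 0.103, and 4.95e-05 with the block). COL6A1, its neighbour on chromosome 21, had 240, 148 and 173 CPM in WT and 257, 203 and 197 CPM in PARP3-/-, with overlap (log2 fold change 0.23, adjusted p = 0.683, and 0.0221 with the block). COL6A3, the large chain, was counted 95, 150 and 113 times in WT and 124, 362 and 231 times in PARP3-/-, without overlap in CPM (log2 fold change 1.04, adjusted p = 0.0891, and 0.000231 with the block). COL6A2 and COL6A1 varied together between replicates, so that their ratio per kb was tight, at 1.38, 1.32 and 1.39 in WT and 1.96, 2.01 and 1.97 in PARP3-/-. The mean ratio was 1.36 ± 0.0393 against 1.98 ± 0.0263 (SD, n = 3). COL6A3 remained at 0.00678 ± 0.00268 of COL6A1 per kb in WT and 0.0116 ± 0.00484 in PARP3-/- (mean ± SD of 3 libraries each), with overlap.

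**Figure D3:**
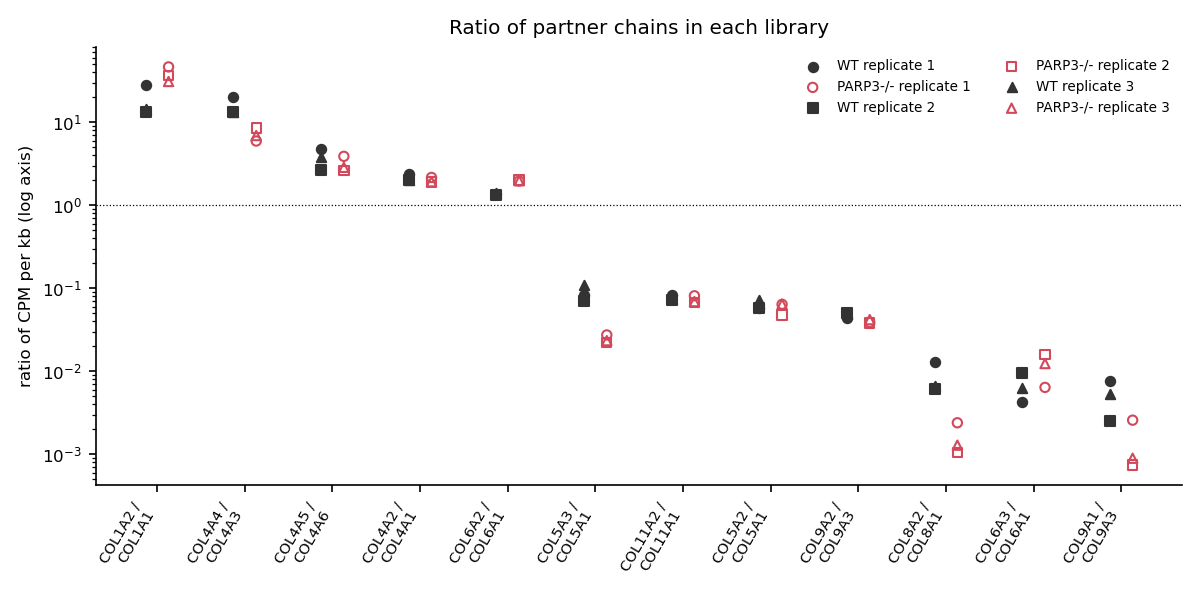
Ratio of CPM per kb between partner chains (log axis) in the 3 WT libraries (filled) and 3 PARP3-/- libraries (open), with the dotted line at equal levels. COL6A2 to COL6A1 moves from 1.36 to 1.98 with a narrow spread, COL5A3 to COL5A1 and COL8A2 to COL8A1 drop, and COL4A2 to COL4A1 overlaps.

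Beyond COL22A1, the FACIT genes COL9A1, COL14A1, COL16A1 and COL19A1 were lower with the replicate block, and COL9A3 and COL12A1 were higher. COL9A1 had 8.19, 1.74 and 4.49 CPM in WT and 3.22, 0.651 and 0.794 CPM in PARP3-/-, groups that overlapped and in which replicate 1 was highest (log2 fold change −1.67, standard error 0.75, adjusted p = 0.338, and 0.000174 with the block). COL9A3 of the same type IX collagen had 728, 468 and 564 CPM in WT and 843, 592 and 597 CPM in PARP3-/-, also with overlap (log2 fold change 0.21, adjusted p = 0.739, and 0.0315 with the block). The ratio of COL9A1 to COL9A3 per kb was 0.00759, 0.00251 and 0.00538 in WT and 0.00258, 0.000743 and 0.000898 in PARP3-/-, lower in every replicate number although the groups overlapped. That of COL9A2 to COL9A3 did not overlap and moved less (0.0474 ± 0.00353 in WT and 0.0397 ± 0.00194 in PARP3-/-, mean ± SD of 3 libraries each). COL9A3 overlaps the gene TCFL5 in the annotation.

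COL16A1, a FACIT of skin and cartilage, had 169, 85.3 and 99.6 CPM in WT and 104, 63.5 and 77.7 CPM in PARP3-/-, with overlap (log2 fold change −0.53, adjusted p = 0.452, and 0.000304 with the block). COL19A1, a FACIT of basement membrane zones and of brain, had 99.4, 39.2 and 66.1 CPM in WT and 71.9, 36.1 and 39.6 CPM in PARP3-/-, also with overlap (log2 fold change −0.47, adjusted p = 0.656, and 0.00500 with the block). COL14A1 was scarce, with 7, 20 and 24 counts in WT and 4, 9 and 10 counts in PARP3-/- (log2 fold change −1.04, adjusted p = 0.340, and 0.0454 with the block). COL12A1, which like COL14A1 binds fibrils of dense tissue, moved the other way. Its level was 316, 279 and 273 CPM in WT and 420, 366 and 353 CPM in PARP3-/-, without overlap (log2 fold change 0.39, adjusted p = 0.102, and 0.000272 with the block). COL9A2 and COL21A1 were called in neither fit, and COL20A1 had at most 2 counts in a library.

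Of the multiplexins, COL18A1, the source of the endostatin fragment, was higher with the block. It had 214, 155 and 176 CPM in WT and 301, 250 and 241 CPM in PARP3-/-, without overlap (log2 fold change 0.54, standard error 0.15, adjusted p = 0.102, and 6.76e-05 with the block). COL18A1 is overlapped by an antisense gene, COL18A1-AS1, and the strand setting of the counting is not given in the sources used here. COL15A1, singled out after its values were seen, had 62.6, 10.4 and 21.5 CPM in WT and 47.5, 13.1 and 11 CPM in PARP3-/-. Replicate 1 stood 3.92 times above the mean of replicates 2 and 3 in WT and 3.95 times above in PARP3-/-, while the genotypes overlapped widely (log2 fold change −0.41, standard error 0.77, adjusted p = 0.890, and 0.143 with the block). COL13A1, a transmembrane chain of the neuromuscular junction, had 41.7, 60.8 and 47.0 CPM in WT and 51.4, 82.0 and 82.8 CPM in PARP3-/-, with overlap (log2 fold change 0.53, adjusted p = 0.287, and 0.00105 with the block). COL7A1 of anchoring fibrils and COL28A1 were called in neither fit.

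**Figure D4:**
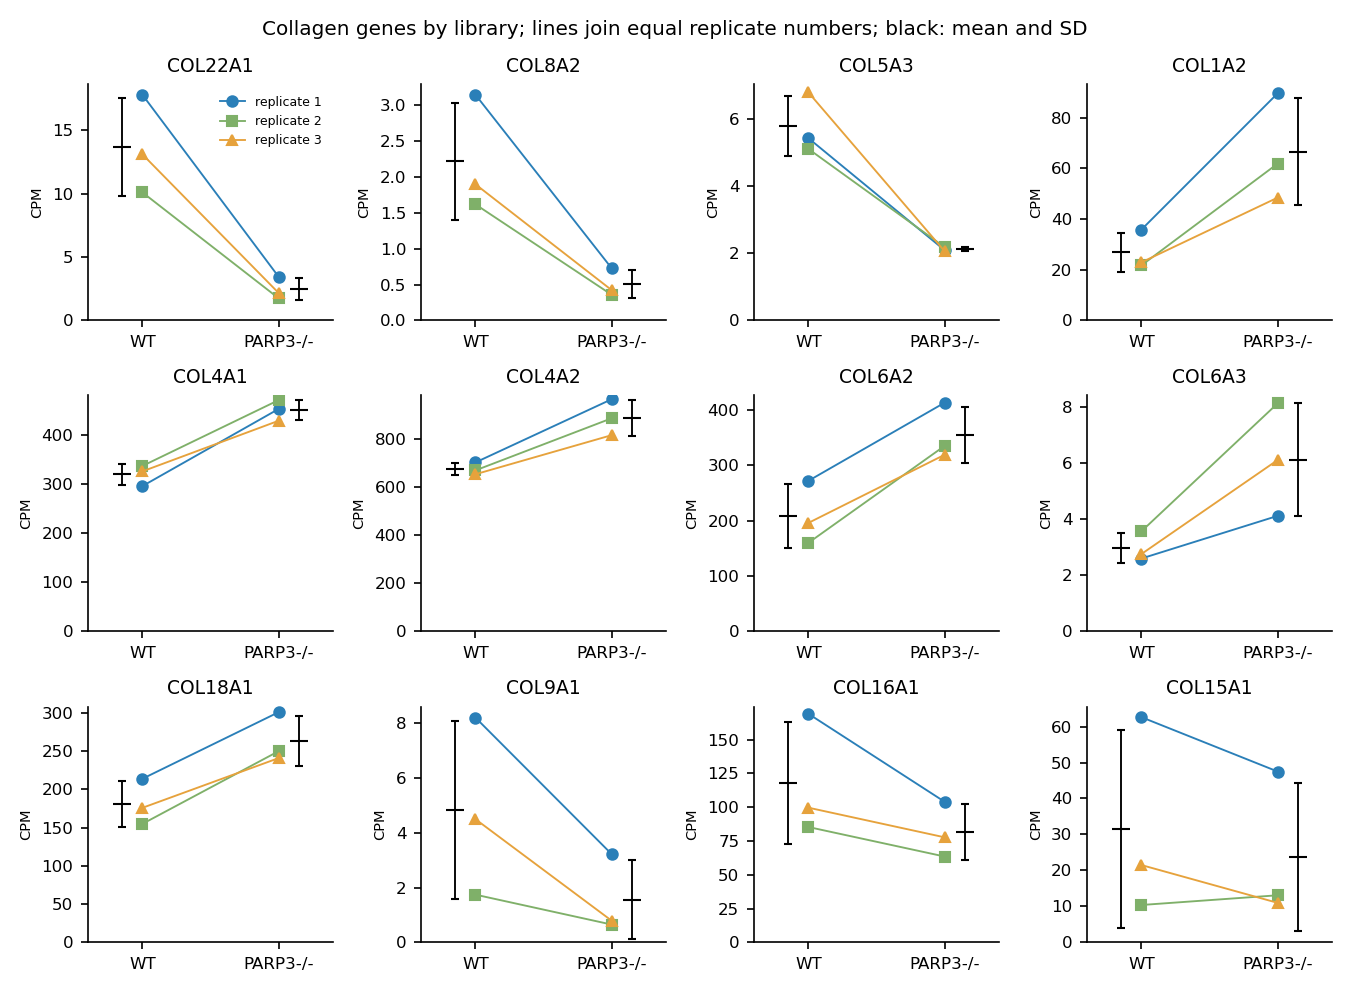
CPM in each library for 12 collagen genes, with lines joining WT and PARP3-/- libraries of equal replicate number and black bars for mean and SD (n = 3). The lines of COL22A1, COL8A2 and COL5A3 all fall and those of COL1A2, COL4A1, COL4A2, COL6A2, COL6A3 and COL18A1 all rise, while replicate 1 lies highest in both genotypes for COL9A1, COL16A1 and COL15A1.

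Many collagen genes also differed between replicate numbers. In the blocked fit the replicate term passed in 23 of the 35 genes (65.7%), where 35.3% of all tested genes passed, an examination added after replicate 1 was seen to stand apart. Counted by library ranges alone, 4 collagen genes were lower (11.4%, against 12.0% of all tested genes) and 11 higher (31.4%, against 10.8%) without overlap between genotypes. Within replicate numbers, 14 of the 35 were higher in all 3 comparisons (against 27.1% of all tested genes) and 11 were lower in all 3 (31.4%, against 27.2%). The classes are given side by side, with no test of the difference between them. All 3 type VI genes and 3 of 6 type IV genes were higher with the block and none was lower. Of the 9 tested FACIT genes 5 were lower and 2 higher, and of the 10 tested fibrillar genes 3 were lower and 2 higher. In that fit 12.5% of all tested genes were lower and 11.8% higher.

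The genes that modify, fold, export, cross-link and bind collagen were listed separately. The table held 63 of the 66 genes listed, of which 51 were tested, and OGN, ASPN and MIA2 were not analysed here. DCN and SERPINH1 fell and ADAMTS3, MMP14, P3H2, PXDN and TGM2 rose, which is 3.92% lower and 9.80% higher beside the 3.33% and 1.36% of all tested genes. With the replicate block 6 were lower (11.8%, against 12.5%) and 20 higher (39.2%, against 11.8%). The median log2 fold change of the list was 0.16.

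SERPINH1, the chaperone HSP47 that binds the collagen helix in the endoplasmic reticulum, averaged 569 ± 56.9 CPM in WT and 374 ± 13.8 CPM in PARP3-/- (mean ± SD of 3 libraries each). Its counts were 19882, 22205 and 26022 in WT and 11421, 15971 and 14538 in PARP3-/-, and the groups did not overlap in CPM (log2 fold change −0.61, standard error 0.10, adjusted p = 0.0191 by edgeR). The call was lost without PARP3-/- replicate 1 (−0.61), replicate 2 (−0.58) or replicate 3 (−0.63) or WT replicate 3 (−0.52). The export adaptor KLHL12 was higher with the block (log2 fold change 0.29, adjusted p = 0.00339), and FKBP10, PDIA3 and MIA3 were called in neither fit. The list held 13 genes under hydroxylation of proline and lysine in the chains, not all of them hydroxylases. Of these, P3H2 rose from 18.5 ± 4.21 to 35.6 ± 5.62 CPM (SD, n = 3, log2 fold change 0.95, adjusted p = 0.0392 by edgeR). P3H2 lost its call with a mean count of at least 50 and in every fit with 1 library left out other than the one without WT replicate 1, at log2 fold changes from 0.78 to 1.04. P3H4 was lower with the block (log2 fold change −0.29, adjusted p = 0.00486) and PLOD3 higher (0.23, adjusted p = 0.0183), and the other 10 were called in neither fit. Both galactosyltransferases were higher with the block, COLGALT1 by 0.19 (adjusted p = 0.0166) and COLGALT2 by 0.55 (adjusted p = 0.000431) on the log2 scale.

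Outside the cell, ADAMTS3, which removes amino-terminal propeptides of procollagen, had 541, 744 and 735 counts in WT and 675, 1035 and 920 counts in PARP3-/- (log2 fold change 0.47, adjusted p = 0.0486 by edgeR). This call was lost in all 6 fits with a library left out, at log2 fold changes from 0.39 to 0.52, and also with median-of-ratios factors, with a mean count of at least 50 and with no filter on low counts. PCOLCE2, an enhancer of carboxy-terminal cleavage, was higher with the block (0.41, adjusted p = 0.0215). TGM2, a transglutaminase that cross-links matrix proteins, rose from 421 ± 46.6 to 774 ± 50.9 CPM (SD, n = 3; log2 fold change 0.88, standard error 0.11, adjusted p = 0.00690 by edgeR). Of the lysyl oxidases, LOXL3 was higher (0.33, adjusted p = 0.0131) and LOXL2 lower (−0.24, adjusted p = 0.00610) with the block, and LOX itself had at most 3 counts in a library.

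Of the proteins that bind fibrils or networks, PXDN, the peroxidase that forms the sulfilimine cross-links of type IV collagen, rose from 149 ± 8.12 to 236 ± 11 CPM (SD, n = 3; log2 fold change 0.66, standard error 0.08, adjusted p = 0.00563 by edgeR). PXDN and TGM2 were the machinery genes whose calls held in all 6 fits with a library left out. DCN, a proteoglycan on fibrils of type I collagen and 1 of the fibroblast markers above, had 428, 407 and 499 counts in WT and 186, 226 and 187 counts in PARP3-/- (log2 fold change −1.05, standard error 0.14, adjusted p = 0.00919 by edgeR). Without PARP3-/- replicate 2, PARP3-/- replicate 3 or WT replicate 3 its call was lost, at log2 fold changes of −1.01, −1.0 and −0.99. Of the other fibroblast and mural markers, FAP was higher in edgeR with the block and THY1, with 15, 9 and 13 counts in WT and 0, 1 and 1 in PARP3-/-, was lower in DESeq2 (adjusted p = 0.0134), so the list moved in both directions, and the part of other cell types in these results was not tested. SPARC, which binds collagen at the cell surface, was lower with the block (−0.47, adjusted p = 0.000181) and in DESeq2 (adjusted p = 0.00374). FN1 was higher with the block (0.63, adjusted p = 0.000203) and in DESeq2 (adjusted p = 0.0114). Of the 8 tested genes of this role, 2 were lower and 2 higher with the block, where 12.5% of all tested genes were lower and 11.8% higher.

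Among receptors and degrading enzymes, MMP14, a membrane-bound collagenase, rose from 144 ± 9.69 to 217 ± 11.1 CPM (SD, n = 3; log2 fold change 0.59, standard error 0.09, adjusted p = 0.0116 by edgeR). The call was lost without PARP3-/- replicate 2 (0.56) or WT replicate 3 (0.60). Of the secreted enzymes listed, MMP1 and MMP13 stayed at or below 8 counts. MMP8 had 14, 32 and 43 counts in WT and 14, 35 and 27 counts in PARP3-/-. MMP2 averaged 358 ± 72.9 CPM in WT and 396 ± 51.1 CPM in PARP3-/- (SD, n = 3). MMP8 and MMP2 were called in neither fit. In edgeR, receptors were called with the block and not without it, namely 6 higher and 1 lower of the 8 tested. In the blocked fit 11.8% of all tested genes were higher and 12.5% lower. DESeq2, without a block, called DDR1 (adjusted p = 0.0064) and ITGB1 (adjusted p = 0.00153) higher. The receptors higher with the block included the integrin chain ITGA1 (log2 fold change 0.68, adjusted p = 0.000272), the uptake receptor MRC2 (0.50, adjusted p = 0.000506) and the kinase DDR1 (0.42, adjusted p = 0.000587). The proteases CTSB (0.19, adjusted p = 0.0350) and FAP (0.51, adjusted p = 0.0103) were higher with the block as well.

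**Figure D5:**
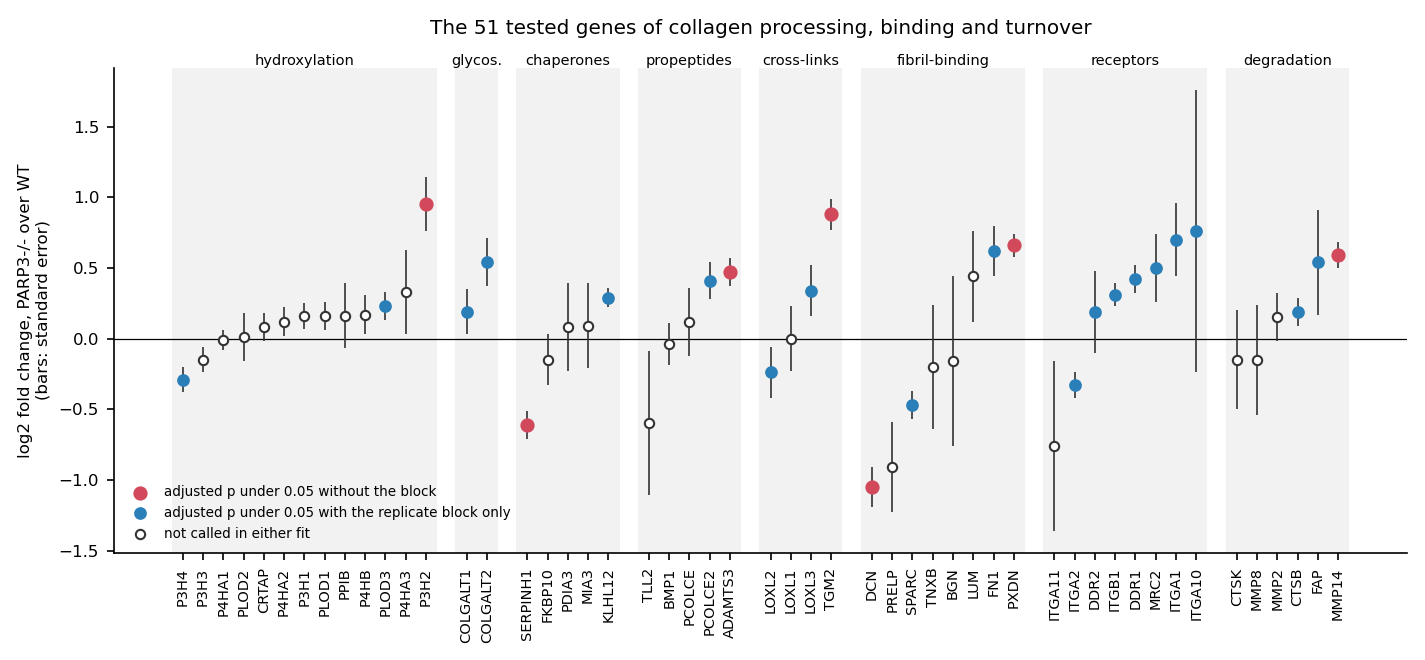
Log2 fold change of PARP3-/- over WT with its standard error (fit without the block) for the 51 tested genes of collagen processing, binding and turnover, by role. Red points, called without the block, are DCN and SERPINH1 below 0 and ADAMTS3, MMP14, P3H2, PXDN and TGM2 above 0, and blue points were called by edgeR with the replicate block but not without it.

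The neighbours of the called collagen genes were examined within 1 Mb on either side, with other collagen genes left out. COL4A2, next to COL4A1, is therefore not in these counts. None of the 2 tested neighbours of COL22A1, the 25 of COL8A2, the 10 of COL1A2 or the 15 of COL4A1 was called without the block, and of the 56 around COL5A3 only the pseudogene ZNF812P was, as higher. With the block 0 of 2, 1 of 25, 5 of 10, 2 of 15 and 5 of 56 neighbours of COL22A1, COL8A2, COL1A2, COL4A1 and COL5A3 were called. The neighbours of COL1A2 that were called were all higher, with a median log2 fold change of 0.22 over the 10. COL8A1 was higher with the block while 9 of its 15 neighbours were lower and 2 higher, with a median of −0.30. In the replicate block fit 12.5% of all tested genes were lower and 11.8% higher.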

How the data were processed

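RNA of 3 WT and 3 PARP3-/- LN229 cultures was sequenced by the study. The raw counts per Ensembl gene were made and deposited by the authors, who per their methods and processing notes trimmed reads with cutadapt 1.10, removed ribosomal and spike-in reads with Bowtie2 2.2.8, aligned to hg38 with STAR 2.5.3a and counted with HTSeq 0.6.1p1 in union mode, which leaves out reads on several genes. The methods describe total RNA after ribosomal depletion, whereas the labels name polyA RNA. The strand setting of the counting is not given in the sources used here. The table also holds the authors' own comparison (fold changes and p-values), which was not used, and 12 further columns of values per sample that were not used. Groups and replicate numbers came from the sample titles.

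Counts were tested in R 4.3.3 with edgeR 4.0.16 (quasi-likelihood, TMM, filterByExpr with minimum count 10, adjusted p under 0.05 over all 17144 tested genes), as the main test without a replicate block, since the methods of the study name no block. Standard errors were taken as the fold change over the root of its F value. The replicate numbers in the titles were checked as pairs. Deviations from the genotype means correlated across genes at 0.788, 0.680 and 0.383 between libraries of equal number 1, 2 and 3. Unequal numbers correlated at 0.575 (WT replicate 2 with PARP3-/- replicate 3) and 0.367 (WT replicate 3 with PARP3-/- replicate 2). Between replicate 1 and another number the values ran from −0.765 to −0.454. The numbers thus set replicate 1 apart but did not clearly match replicates 2 and 3. The blocked value is printed where it changes a call. DESeq2 1.42.0, median-of-ratios factors, other filters, a stricter threshold and each library left out were the alternatives, and the fit without replicate 1 of both genotypes, the replicate term and other transcript lengths were added after seeing the data. Levels between genes were compared per length of the canonical GENCODE 44 transcript. Of the 33465 table genes found in GENCODE 44, 33420 (99.9%) overlapped their deposited position on hg38. Promoters came from RefSeq GRCh38.p14. In simulated counts, edgeR recovered 174 of 200 genes changed 2-fold, with 9 unchanged genes called among 17121 genes, and 169 with 13 called under the block. DESeq2 recovered 195 but called 55 unchanged genes among 15371, more than either edgeR fit. The simulated counts held no replicate effect, so they cannot test the block as it was used here.

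The members and lists were chosen with earlier results of these data known. Named with values were collagen genes called in either fit, the 2 that the study showed in a heatmap (COL8A2, COL22A1), the 8 of highest level per length, both genes of the head-to-head pairs and of COL3A1 and COL5A2, and machinery genes called without the block or, up to 3 per role, with it. COL1A1 and COL15A1, the remaining partner chains, and the genes outside the collagen lists were named after their values were seen. So were FN1, ITGB1 and machinery genes named as not called or at low counts. The limit of 3 counts covers counting error only, while SDs and standard errors include the spread between replicates.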

Additional observations from a re-analysis of the deposited data

How the results depend on the processing

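None of the named genes reversed a called direction under any alternative run. With the replicate block, the number of all tested genes called was 2143 lower and 2023 higher, of collagen genes 9 lower and 13 higher, and of machinery genes 6 lower and 20 higher. With DESeq2 it was 871 lower and 475 higher among all tested genes, 7 higher for collagen genes (COL12A1, COL18A1, COL1A2, COL4A1, COL4A2, COL6A2 and COL6A3) and 9 higher for machinery genes. Without replicate 1 of both genotypes (added after seeing the data) it was 1739 lower and 1536 higher among all tested genes, 7 lower and 11 higher for collagen genes, and 6 lower and 19 higher for machinery genes. At an adjusted p under 0.001 with a log2 fold change beyond 1, 76 genes were lower and 6 higher among all tested genes, and 0 collagen and 0 machinery genes passed in either direction, in edgeR without the block. With a mean count of at least 50 there were 331 lower genes among all tested genes, 1 higher collagen gene and 3 higher machinery genes, and with no filter on low counts 5 higher collagen genes. COL1A2, P3H2 and ADAMTS3 lost their calls with a mean count of at least 50, and ADAMTS3 also with median-of-ratios factors and with no filter. Leaving out 1 library at a time gave 281 to 606 lower and 49 to 259 higher genes among all tested genes, 2 to 3 lower and 0 to 4 higher collagen genes, and 0 to 3 lower and 2 to 7 higher machinery genes. The log2 ratio of the summed collagen CPM was 0.236, and lay between 0.148 and 0.337 with a library left out, at 0.318 without COL11A1 and at 0.210 on raw library totals. Of the 49 named genes with a value, PARP3 included, 32 gained a call with the replicate block and 0 lost one. The sign of an uncalled collagen gene changed in at most 3 of the 28 named collagen genes under any alternative. The cause of these differences was not tested. Depth limits COL3A1, COL10A1, COL17A1, COL20A1, COL23A1 and COL25A1, for which no difference was detectable, and COL4A3, COL14A1, COL21A1 and COL28A1, whose counts stayed under 30.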

Other observations

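Tested genes within 1 Mb of COL11A2 on chromosome 6 included 9 of 49 called lower by edgeR without the block, beside 3.33% of all tested genes. All 9 were HLA class II genes (HLA-DMB, HLA-DOA, HLA-DPA1, HLA-DPB1, HLA-DQA1, HLA-DQB1, HLA-DRA, HLA-DRB1 and HLA-DRB5). These genes serve the presentation of peptides to T cells, not all of them as presenting molecules, and their related copies can share reads. COL11A2 itself was called in neither fit (log2 fold change −0.14, standard error 0.19, adjusted p = 0.818 by edgeR, and 0.0569 with the replicate block). Around COL7A1 on chromosome 3, 24 of 52 neighbours were lower with the replicate block and 5 were higher, and around COL2A1 on chromosome 12, 15 of 32 were lower and 2 higher, beside 12.5% lower and 11.8% higher of all tested genes. COL7A1 was not among the genes called (log2 fold change −0.10, adjusted p = 0.908 without the block).

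ITGA10, a collagen-binding integrin chain, followed the replicate number in the manner of COL15A1. It had 658, 86 and 122 counts in WT and 874, 243 and 174 counts in PARP3-/-, with groups that overlapped. Without the block it was not called (adjusted p = 0.820 by edgeR, log2 fold change 0.76), and with the replicate block it was (adjusted p = 0.000848, log2 fold change 0.85). These genes were chosen after their values were seen.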
